A study of Mus musculus with 2 samples.

Results

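Pericyte and smooth muscle nuclei, together called mural nuclei here, numbered 83 of the 25957 nuclei kept from 2 mouse hippocampus libraries. They were chosen by a rule on marker counts. Nuclei had to show 500 or more genes, 800 or more UMIs (unique molecular identifiers, each standing for 1 captured RNA molecule) and under 5% mitochondrial UMIs to be kept. A nucleus was mural with at least 1 UMI of 3 or more of the 8 genes Rgs5, Pdgfrb, Atp13a5, Kcnj8, Abcc9, Notch3, Acta2 and Myh11, at most 2 UMIs of the endothelial gene Flt1, and at most 2 UMIs of the fibroblast genes Dcn, Col1a2 and Slc6a13 summed.

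Both libraries came from mice homozygous for a floxed Bcas2 gene (Bcas2F/F). Bcas2 encodes a subunit of the Prp19 spliceosome complex. The knockdown-labelled library came from mice injected with AAV2/9-Syn-cre, an adeno-associated virus that carries Cre recombinase under the neuronal synapsin promoter. The control came from mice of the same floxed genotype injected with AAV-vehicle, although its genotype label reads WT. The promoter directs Cre to neurons, so mural cells were not its intended target. No source used here gives the age or number of the mice or the time after injection. Each group held 1 library, so no test between conditions was possible, and every interval below covers counting error only.

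Mural cells wrap the endothelial tubes of brain vessels. Pericytes sit on capillaries within the vascular basement membrane, are recruited by endothelial PDGF-B acting on the receptor Pdgfrb, and help to maintain the blood-brain barrier. Smooth muscle cells ring arterioles and set their diameter with a contractile apparatus of smooth muscle actin (Acta2), smooth muscle myosin (Myh11) and associated proteins.

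The knockdown-labelled library held 39 mural nuclei among 13429 kept nuclei, and the control held 44 among 12528. Mural nuclei thus made up 0.290% of the former (exact Clopper-Pearson 95% interval 0.207 to 0.397%) and 0.351% of the latter (0.255 to 0.471%), and these intervals overlapped. Against endothelial nuclei, chosen by a like rule on 8 endothelial markers, the numbers were 92.9 mural per 100 endothelial (58.5 to 147) and 37.9 per 100 (26.2 to 54.1). The second pair of intervals did not overlap, because the knockdown-labelled library held 42 endothelial nuclei and the control 116. Dissection, nuclear sorting and capture can set such shares, and with 1 library a group they cannot be told apart from treatment.

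The libraries stood apart in ways that touch every comparison between them. Kept nuclei of the knockdown-labelled library had a median of 6094 UMIs and those of the control 2577, while mural nuclei had medians of 1724 and 2091.5. Mural totals ran from 966 to 13928 UMIs in the first and from 1039 to 7951 in the second. Bcas2 itself was counted 8 times in the knockdown-labelled mural nuclei and 5 times in the control ones, too few to compare. In all other kept nuclei it stood at 40.6 CPM (counts per 1000000 UMIs) under Syn-cre and 30.7 CPM under vehicle, the opposite direction to the knockdown label. Those nuclei were unlike mixtures of cells. Oligodendrocyte nuclei, chosen by markers, numbered 1394 of 13429 kept nuclei in the knockdown-labelled library and 9050 of 12528 in the control. The pooled count therefore cannot check the label, and every level set against the rest of a library below has the same limit. The floxed part of the gene is not known here, so 3' tags may lie outside it and check nothing. The libraries had 56 barcodes in common, none of them mural.

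Most members carried the pericyte side of the rule. This split uses 3 of the rule's own genes, so it describes the set and is no independent check of the label. Pericyte-marked nuclei, with Atp13a5 and neither Acta2 nor Myh11, numbered 32 of 39 knockdown-labelled and 34 of 44 control nuclei. Smooth-muscle-marked nuclei, with Acta2 or Myh11 and no Atp13a5, numbered 3 and 1. Nuclei with both kinds of marker numbered 3 and 3, and nuclei with neither numbered 1 and 6. The smooth muscle side of the label therefore rests on 4 nuclei. Of genes outside the rule, Vtn had a UMI in 30 of the 32 and 31 of the 34 pericyte-marked nuclei, Ebf1 in 27 and 31, and Dlc1 in 30 and 34. All 3 were present in 25 and 29 of these nuclei, and 1 knockdown-labelled nucleus had none of them. They are not particular to pericytes. Ebf1 had a UMI in 69.0 and 82.8% of endothelial nuclei, and Vtn in 59.1 and 63.5% of fibroblast nuclei, chosen by a like rule. Other pericyte genes were scarce, with 12 UMIs of Anpep and 9 of Cd248 over all 66 pericyte-marked nuclei. The 20 listed pericyte genes outside the rule summed to medians of 21.5 and 39.5 UMIs per pericyte-marked nucleus (0 to 42 and 2 to 77). The 8 endothelial markers summed to 16 and 12 UMIs over all mural nuclei (127 and 105 CPM, or 524 and 90.8% of the rest of the same library). Flt1, which the rule capped, gave 13 and 8 of these, and Pecam1, Cdh5, Mecom and Adgrl4 had none. The 8 fibroblast markers summed to 11 and 22 UMIs (87.5 and 193 CPM, or 190 and 146% of the rest), with Slc6a13 at 6 and 9, Dcn at 0 and 3 and Lum at 0.

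The 8 rule genes chose the nuclei, so their levels are given as a description. Levels here are CPM, taken over the summed UMIs of the mural nuclei of a library. Atp13a5, a P5-type ATPase of brain pericytes, was the most abundant, at 1447 CPM in knockdown-labelled and 2630 CPM in control nuclei, the order kept for each pair of values below. Pdgfrb stood at 1145 and 1438 CPM and had a UMI in 36 of 39 and 41 of 44 nuclei. The sulfonylurea receptor gene Abcc9 and the pore gene Kcnj8, which form the vascular KATP channel, stood at 453 and 771 CPM and at 143 and 298 CPM. Notch3 stood at 461 and 684 CPM, and Rgs5, a regulator of G-protein signalling, at 318 and 736 CPM. Each of these 6 genes had the lower value in the knockdown-labelled nuclei, although Pdgfrb, Notch3, Abcc9 and Atp13a5 turned above the control under the scaling to mural-enriched genes described further on. Acta2 went the other way, with 125 UMIs in 3 nuclei against 3 UMIs in 1 nucleus, and Myh11 had 19 UMIs in 6 nuclei against 5 in 4.

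**Figure D1:**
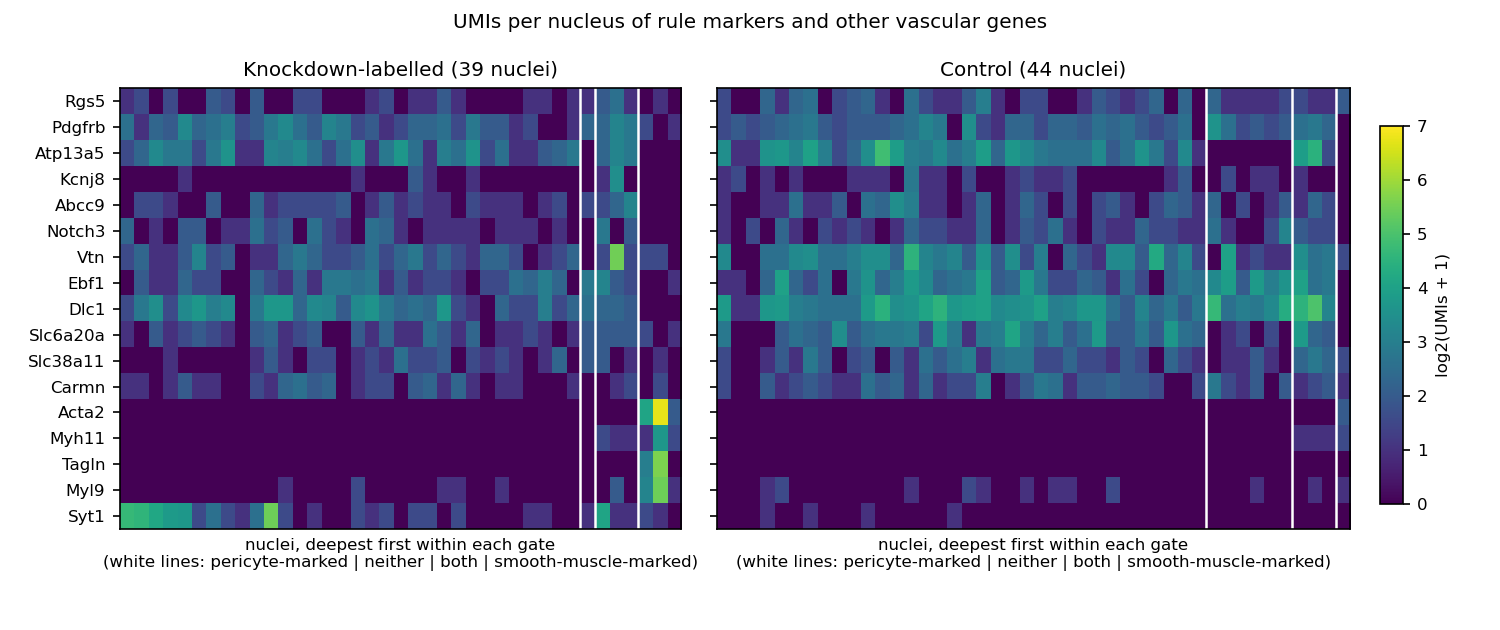
Each column is a mural nucleus, ordered by depth within its gate, and each row a gene, with colour giving log2(UMIs + 1). Acta2 and Tagln are bright in only 2 of the 39 knockdown-labelled nuclei, while Pdgfrb, Atp13a5, Dlc1, Vtn and Ebf1 are spread over nearly all nuclei of both libraries, and Syt1, a neuron gene, is bright in the deepest knockdown-labelled nuclei.

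Nuclei on either side of the 3-marker threshold differed in pericyte genes that the rule did not use. Vtn, the vitronectin gene, stood at 1129 CPM in the 11 knockdown-labelled nuclei with exactly 3 markers and at 91.0 CPM in the 76 nuclei with exactly 2, which were left out. In the control it stood at 733 CPM in 9 nuclei just inside and 27.1 CPM in 72 just outside. The nuclei just outside were deeper, with median totals of 3616 and 3816.5 UMIs against 1458 and 2087 inside.

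Detection of single genes followed depth as well as level. After each nucleus was thinned to 1000 UMIs, which left out 1 knockdown-labelled nucleus, Pdgfrb was seen in 68.4% (51.4 to 82.5%) of knockdown-labelled and 79.5% (64.7 to 90.2%) of control mural nuclei. Rgs5 was seen in 31.6% (17.5 to 48.6%) and 56.8% (41.0 to 71.7%). Unthinned shares were 92.3 and 93.2% for Pdgfrb and 56.4 and 79.5% for Rgs5. Oligodendrocyte nuclei, which should lack both genes, showed Pdgfrb in 0.217 and 0.786% and Rgs5 in 0 of 1380 (a count of 0 allows up to 3 nuclei, or 0.217%) and 0.0775% after the same thinning, from medians of 1947.5 and 2425 UMIs. Both are rule genes, so the gap between mural and oligodendrocyte nuclei was set by the choice of nuclei.

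The smooth muscle signal was concentrated in single nuclei. A knockdown-labelled nucleus of 2790 UMIs held 106 UMIs of Acta2, 12 of Myh11, 48 of Tagln (transgelin, an actin-binding protein of smooth muscle), 43 of Myl9 (the regulatory myosin light chain), 10 of Mylk (its kinase) and 13 of Tpm2 (a tropomyosin). It alone gave 84.8% of the library's mural Acta2 and 87.3% of its Tagln. A knockdown-labelled nucleus of 3054 UMIs held 16 UMIs of Acta2, 7 of Tagln, 8 of Myl9 and 4 of Mylk, with 255 UMIs of Ptgds, a prostaglandin synthase gene that is abundant in meningeal fibroblasts. The knockdown-labelled nucleus of 1142 UMIs and the control nucleus of 3138 UMIs had only 3 UMIs of Acta2 and 2 of Myh11 each and no Tagln. The first of these also held 4 UMIs of endothelial markers. The control nucleus also held 26 UMIs of oligodendrocyte markers, 84 of Ptgds and 7 of the choroid plexus gene Ttr. Thus 2 nuclei, both knockdown-labelled, held a broad set of contractile genes, and none of the 44 control nuclei did.

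Against the 66 pericyte-marked nuclei (197328 UMIs), the 4 smooth-muscle-marked ones (10124 UMIs) were higher in several contractile and cytoskeletal genes outside the gate, and also in genes that are neither. The most abundant was Ptgds, with 200 UMIs in pericyte-marked and 372 in smooth-muscle-marked nuclei, 255 of the latter in 1 nucleus. Apod, an apolipoprotein gene, had 39 against 31. Pericyte-marked nuclei had 0 UMIs of Tagln against 55 (all in 2 knockdown-labelled nuclei), 1 of Vim (vimentin) against 22, 18 of Myl9 against 53 and 34 of Myl6 (the essential myosin light chain) against 47. In the opposite direction, Dlc1, a GTPase-activating protein that restrains actomyosin tension, had 507 UMIs in pericyte-marked nuclei and 0 in smooth-muscle-marked ones. P2ry14, a receptor for UDP-sugars, had 129 and 0, and Septin4 129 and 0. Of 611 genes with at least 50 UMIs over both sets, 42.4% were at least 2-fold higher in pericyte-marked nuclei and 8.67% at least 2-fold higher in smooth-muscle-marked nuclei, and a single nucleus can set these values in so small a set. Dab1 and Adgrb3, also at 0 in the smooth-muscle-marked nuclei, were more abundant in all other kept nuclei of the knockdown-labelled library (1647 and 1552 CPM) than in its mural nuclei (1073 and 970 CPM), and 42 UMIs of Dab1 came from its deepest mural nucleus.

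Promoter sequences are shown for 2 contractile genes of the smooth muscle nuclei, Acta2, the most abundant of them, and Myl9, the only one in the RefSeq promoter table with the motif searched. Smooth muscle genes are classically driven by serum response factor at the CArG box. Of 22 genes searched (Acta2, Myh11 and the contractile list), 16 had a promoter in the table, which gives 250 bases before and 50 after the start on GRCm38.p6. The windows below are chr19:34255324-34255623 on the minus strand for Acta2 and chr2:156775214-156775513 on the plus strand for Myl9, with a CArG box match in capitals where a search of both strands found it.
Acta2: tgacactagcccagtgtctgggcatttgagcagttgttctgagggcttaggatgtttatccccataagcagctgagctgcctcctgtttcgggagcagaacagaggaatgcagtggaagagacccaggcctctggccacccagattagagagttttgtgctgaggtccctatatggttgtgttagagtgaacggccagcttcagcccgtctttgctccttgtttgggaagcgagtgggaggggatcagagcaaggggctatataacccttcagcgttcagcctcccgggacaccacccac
Myl9: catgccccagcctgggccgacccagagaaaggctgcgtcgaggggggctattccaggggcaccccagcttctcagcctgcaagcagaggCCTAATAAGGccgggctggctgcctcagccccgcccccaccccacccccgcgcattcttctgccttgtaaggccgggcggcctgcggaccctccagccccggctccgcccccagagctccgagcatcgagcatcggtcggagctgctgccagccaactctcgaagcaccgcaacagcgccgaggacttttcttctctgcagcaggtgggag
Myl9 alone of the 16 held the match, 161 to 152 bases before its start. Over all 32851 promoter windows the share with a match was 1.63% (535 windows). The Acta2 window held none, which says only that the exact letters are absent from these 300 bases. It does hold ccctatatgg and ccttgtttgg, each a single base away from the pattern searched. Near matches were not counted in any window, so the search does not show that Acta2 lacks a CArG box.

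Beyond the rule genes, a set of vascular genes was far more abundant in mural nuclei than over all other kept nuclei. Of 737 genes with at least 50 mural UMIs, 17.4% were at least 2-fold and 7.46% (55 genes, 7 of them rule genes) at least 8-fold higher than in all other kept nuclei in both libraries. The rule chose nuclei by correlated genes, so these figures describe the set. The long noncoding RNAs Tbx3os1 and Carmn, the amino acid transporter gene Slc38a11, the T-box factor gene Tbx2 and the gap junction gene Gjc1 led the genes outside the rule. Tbx3os1 stood at 732 and 1052 CPM, with log2 ratios of 10.42 and 10.19 over the rest, although whether counting used strand is not given and it lies antisense to its neighbour. Carmn, the noncoding host of the smooth muscle microRNAs miR-143 and miR-145, stood at 421 and 894 CPM (log2 ratios of 9.14 and 9.07). Vtn had 142 and 262 UMIs, or 1129 and 2297 CPM (7.65 and 7.05). Ebf1, a transcription factor of perivascular cells, had 102 and 255 UMIs, or 811 and 2236 CPM (6.31 and 6.21). Ednra, the endothelin A receptor, stood at 262 and 377 CPM, and the ADP-ribosyltransferase family gene Art3 at 310 and 289 CPM.

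**Figure D2:**
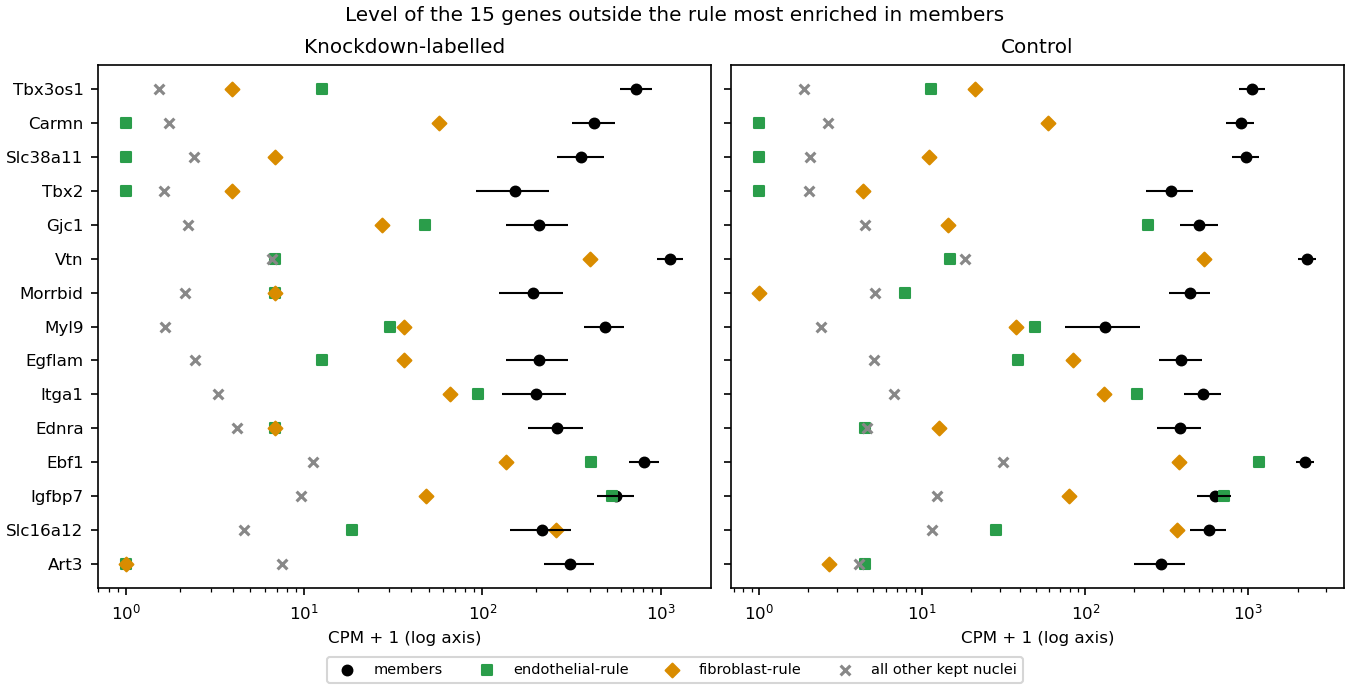
Points give CPM + 1 on a log axis for the 15 genes outside the rule with the largest ratio of mural over all other kept nuclei, with bars for the exact 95% Poisson interval of the mural level. Mural levels exceed those of the rest for all 15 genes in both libraries. The endothelial level of Igfbp7 exceeds the mural one in the control. In the knockdown-labelled library it lies just below the mural level, and the fibroblast level of Slc16a12 exceeds the mural one.

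Set beside endothelial nuclei, the nearest neighbours on the vessel wall, the mural nuclei differed in both directions in each library. Of 3304 genes with at least 50 UMIs over the 2 classes, 4.06% (134 genes) were at least 2-fold higher in mural nuclei in both libraries and 9.62% (318) at least 2-fold lower. Carmn and Slc38a11 had no UMI in endothelial nuclei of either library, and Vtn stood at 5.84 and 13.8 CPM there. Adap2os, a noncoding RNA, stood at 286 and 508 CPM in mural and at 0 in endothelial nuclei, and Ggt5, a gamma-glutamyltransferase that cleaves leukotriene C4, at 191 and 359 CPM against 0. On the endothelial side, the transcription factor gene Mecom (1028 and 1685 CPM in endothelial nuclei), the adhesion receptor gene Adgrl4 (508 and 1568), Hmcn1 (438 and 1131) and Cyyr1 (269 and 574) had no mural UMI. Ebf1 was not particular to mural nuclei: endothelial nuclei held it at 409 and 1162 CPM, and the mural level fell just short of 2-fold higher in each library.

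Gene groups listed by known role were counted in the same way. They are to be read against the 4.06% higher and 9.62% lower over all genes, and some genes stand in more than 1 list. A gene could be measured through its mural UMIs alone, and the rule chose nuclei by correlated genes, so these counts are description only. All 10 measured of 20 listed pericyte genes outside the rule were at least 2-fold higher in mural than in endothelial nuclei in both libraries, among them Dlc1 (1606 and 3980 CPM against 280 and 244) and the cyclic AMP phosphodiesterase gene Pde8b (962 and 1885 against 123 and 44.7). Of the contractile genes, 4 of 6 were higher, including Cald1, the caldesmon gene, at 1002 and 1534 CPM against 70.1 and 131. Of the vasoactive and cyclic nucleotide genes, 6 of 11 were higher and none lower. These included the soluble guanylate cyclase subunits Gucy1a1 (262 and 281 CPM against 52.6 and 0) and Gucy1b1 (350 and 342 against 40.9 and 10.3), which form the receptor for nitric oxide. Prkg1, the cyclic GMP-dependent kinase, was abundant in mural nuclei at 1201 and 2262 CPM but also in endothelial ones at 1034 and 977.

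Transport genes differed in both directions. Of 10 measured solute carriers and pumps, 7 were higher in mural nuclei and 2 lower. Slc6a20a, a proline and imino acid transporter, stood at 557 and 1832 CPM in mural nuclei and 40.9 and 3.44 in endothelial nuclei. Slc30a10, a manganese exporter, stood at 453 and 605 CPM against 17.5 and 3.44. The glucose transporter gene Slc2a1 went the other way, at 71.6 and 70.1 CPM in mural and 1478 and 3628 in endothelial nuclei, as did the phospholipid flippase gene Atp10a at 7.95 and 17.5 against 368 and 1025.

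In the lists of growth factor, inflammatory and early response genes, more members were lower than higher in mural nuclei. The shares over all 3304 genes were 4.06% higher and 9.62% lower. Here, too, a gene could be measured through its endothelial UMIs alone, so the counts are description only. In the PDGF, TGF-beta and angiopoietin list none of 14 was higher and 7 were lower, among them the ligand Pdgfb (7.95 and 8.77 CPM against 105 and 148), the angiopoietin receptor Tek (15.9 and 8.77 against 222 and 430) and the TGF-beta coreceptor Eng (47.7 and 149 against 327 and 653). Of 12 interferon, antigen and inflammatory genes 10 were lower, including Il1r1 (71.6 and 8.77 against 473 and 736) and Vcam1 (0 and 17.5 against 163 and 402). Of 8 immediate early genes 6 were lower, with the flow-responsive factor Klf2 at 63.6 and 17.5 CPM against 625 and 1001. Of 6 Notch pathway genes none differed by 2-fold in both libraries. Of 12 basement membrane and integrin genes, 3 were higher and 2 lower, and of 11 transcription factors, 3 were higher (Tbx2, Zic1 and Nr2f2) and 3 lower (Epas1, Mrtfb and Lef1). Zic1, a zinc-finger factor, stood at 247 and 535 CPM against 23.4 and 13.8, and Lef1, the Wnt effector, at 31.8 and 140 against 496 and 1045.

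Against fibroblast nuclei, too, differences ran in both directions. Of 5245 genes, 2.92% (153) were at least 2-fold higher in mural nuclei in both libraries and 6.27% (329) lower. Notch3 stood at 2.94 and 3.33 CPM in fibroblast nuclei, Art3 at 0 and 1.67, Tbx2 at 2.94 and 3.33 and Gucy1a1 at 5.89 and 3.33, each far below its mural level. Fibroblast nuclei were higher in the ligand gene Bmp6 (1278 and 1525 CPM against 0 and 35.1), Lama1 (718 and 1152 against 23.9 and 0), a laminin chain, and Slc7a11 (592 and 1408 against 23.9 and 17.5), the cystine transporter. Of 11 measured pericyte genes, which could be measured through mural UMIs alone, 8 were higher in mural nuclei. Slc6a20a stood at 1495 and 2068 CPM in fibroblast nuclei, above its mural levels, and Vtn stood at 400 and 537.

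Between the 2 libraries, all 83 nuclei gave 125 of 737 genes at least 2-fold higher in the knockdown-labelled library (17.0%) and 125 at least 2-fold lower (17.0%), with a median log2 ratio of −0.14. The 48 mural-enriched genes outside the rule had a median of −1.01, with 24 at least 2-fold lower and 1, Myl9, at least 2-fold higher. Slc6a20a had 70 UMIs in the knockdown-labelled mural nuclei and 209 in the control (log2 ratio −1.71, counting interval −2.13 to −1.32). Dlc1 had 202 and 454 (−1.31, −1.56 to −1.07), and Ebf1 102 and 255 (−1.46, −1.81 to −1.13). Pdgfrb had 144 and 164 UMIs (−0.33, −0.66 to 0.0033), an interval that reaches 0. Scaling each library to its summed mural-enriched genes outside the rule, a choice made after seeing the data, shifted every ratio up by 0.95. It then gave 293 genes higher (39.8%) and 20 lower (2.71%). The 48 genes centred on −0.06, which the scaling to their own sum sets in advance. The split of higher and lower genes therefore depended on whether levels were read per UMI or per mural UMI.

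RNA of other cell types moved with this comparison. The 10 neuron markers summed to 8397 CPM in knockdown-labelled mural nuclei and 465 CPM in control ones, or 59.4 and 18.6% of the level in all other kept nuclei of the same library. Meg3, a neuronal noncoding RNA, had 693 UMIs against 34 and was present in all 39 knockdown-labelled nuclei. It stood at 6208 and 337 CPM in endothelial nuclei and 5363 and 650 CPM in fibroblast nuclei, so the same order held in both other vascular classes. The 8 oligodendrocyte markers went the other way, at 493 and 4927 CPM (44.8 and 44.6% of the rest), and among them Mbp, the myelin basic protein gene, had 8 and 131 UMIs. The part of free RNA or of mixed droplets in the differences was not tested.

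A minority of deep nuclei held much of this RNA. Nuclei were set apart at 40 or more UMIs of 1 of the neuron, oligodendrocyte, astrocyte and microglia lists, a limit set after seeing the data. By it, 9 knockdown-labelled nuclei (8 by neuron markers, 1 by astrocyte markers) and 7 control nuclei (5 by oligodendrocyte markers, 2 by astrocyte markers) stood out. They had 40 to 187 and 41 to 100 such UMIs, while the highest of the remaining nuclei had 20 and 28 by these lists. Oligodendrocyte precursor and choroid markers were not used for the limit. A remaining knockdown-labelled nucleus of 5662 UMIs held 43 UMIs of precursor markers. The deepest control nucleus, also kept, held 38 UMIs of ependymal and choroid markers. The nuclei set apart held 55.6 and 28.6% of all mural UMIs. Only 0.294 to 2.96% and 0.321 to 3.05% of their UMIs came from mural-enriched genes, against 0.235 to 6.40% (median 3.62%) and 0.733 to 8.03% (median 5.72%) in the other nuclei, so the ranges overlapped: 7 of 30 and 6 of 37 of the other nuclei lay at or under the highest of those set apart. The doublet caller Scrublet marked 1 knockdown-labelled and 5 control mural nuclei.

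**Figure D3:**
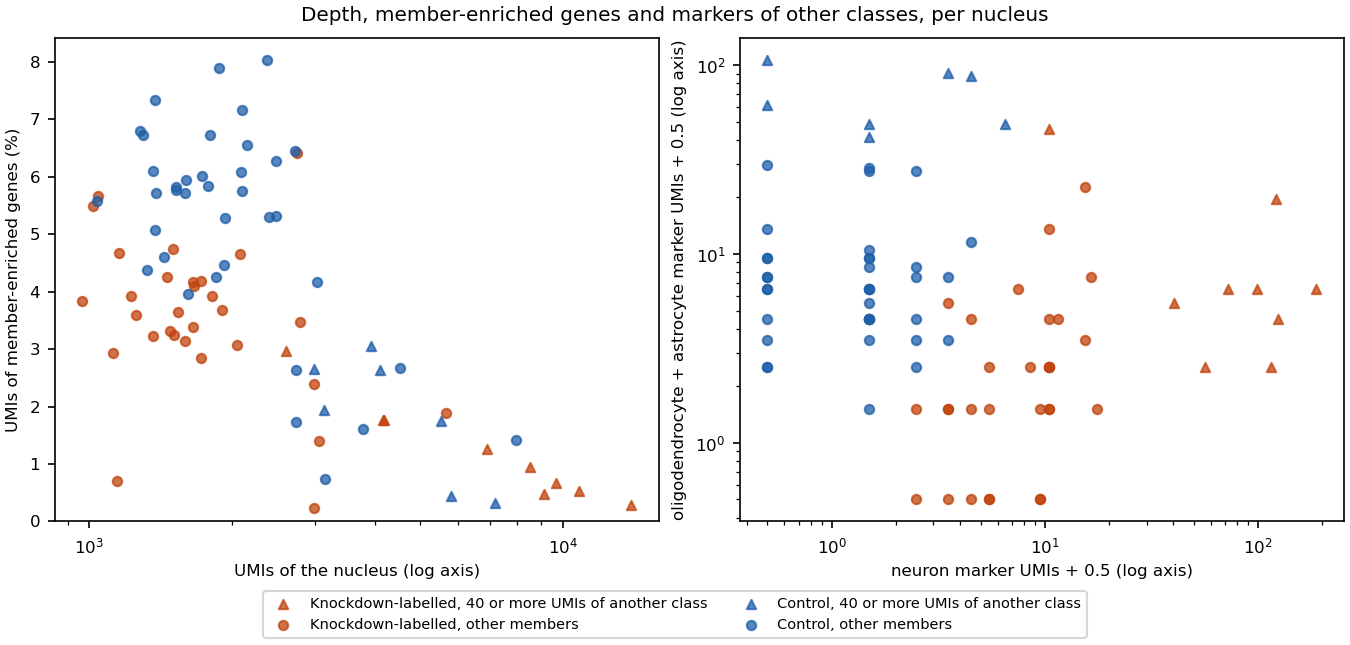
Left, the percentage of a nucleus' UMIs from mural-enriched genes outside the rule against its total UMIs (log axis); right, its oligodendrocyte and astrocyte marker UMIs against its neuron marker UMIs, both plus 0.5 on log axes. Triangles mark the 9 knockdown-labelled and 7 control nuclei with at least 40 UMIs of neuron, oligodendrocyte, astrocyte or microglia markers. They lie to the right on the neuron axis for 8 of the 9 knockdown-labelled nuclei and at the top of the glial axis in the control.

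Without those nuclei, 30 and 37 were left, with medians of 1623.5 and 1877 UMIs, and a smaller share of genes differed by 2-fold. Of 277 genes, 6.86% were at least 2-fold higher in the knockdown-labelled library and 10.8% at least 2-fold lower. The median log2 ratio over the 277 was −0.26, further from 0 than before. The 48 enriched genes outside the rule had a median log2 ratio of −0.48, with 10 at least 2-fold lower and 2 higher. Pdgfrb then stood at 1791 and 1720 CPM (0.06, −0.33 to 0.44), Vtn at 2203 and 2776 (−0.33, −0.66 to −0.01) and Atp13a5 at 2256 and 3169 (−0.49, −0.81 to −0.18). None of these 3 pericyte genes reached 2-fold. Neuron markers still stood at 4190 and 467 CPM (29.7 and 18.7% of the rest), and oligodendrocyte markers at 877 and 3194 CPM (79.8 and 28.9%).

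A smaller group of genes stayed lower in the knockdown-labelled mural nuclei, some of them also in endothelial or fibroblast nuclei. Slc6a20a stood at 949 and 2297 CPM (−1.27, −1.74 to −0.83), with a median of 8.71 UMIs per 10000 per nucleus (0 to 33.1) against 23.1 (0 to 88.9). Dlc1 stood at 2525 and 5123 CPM (−1.02, −1.31 to −0.74), with a nucleus median of 20.7 (0 to 80.0) against 55.6 (0 to 147). Ebf1 stood at 1451 and 2924 CPM (−1.01, −1.39 to −0.64), with 13.3 (0 to 67.2) against 29.3 (0 to 84.9). The nuclei of the 2 libraries overlapped over most of their range for each of these genes. Gpc6, a glypican, stood at 340 and 1069 CPM (−1.62, −2.45 to −0.92), Slco3a1, an organic anion transporter, at 179 and 749 (−2.01, −3.20 to −1.09), and Il34, a ligand of the CSF1 receptor, at 466 and 983 (−1.06, −1.78 to −0.42). Prkg1 was 1612 and 3010 CPM (−0.90, −1.27 to −0.55). With the same nuclei left out and the enriched-gene scaling on top, Slc6a20a stood at −0.80, Dlc1 at −0.55, Ebf1 at −0.54 and Gpc6 at −1.15. Under both changes together the first 3 therefore no longer reached 2-fold. These genes were not all particular to mural nuclei. Ebf1 stood at 409 and 1162 CPM in endothelial and 135 and 373 in fibroblast nuclei. Gpc6 (81.8 and 113, 565 and 1000) and Slco3a1 (58.4 and 92.8, 109 and 152) were lower in both classes too. Slc6a20a and Il34 were lower in fibroblast nuclei (1495 and 2068, 218 and 393). In endothelial nuclei Slc6a20a had 7 and 1 UMIs (40.9 and 3.44 CPM) and Il34 6 and 1 (35.0 and 3.44), too few to compare. Dlc1 and Prkg1 were not lower in endothelial nuclei.

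**Figure D4:**
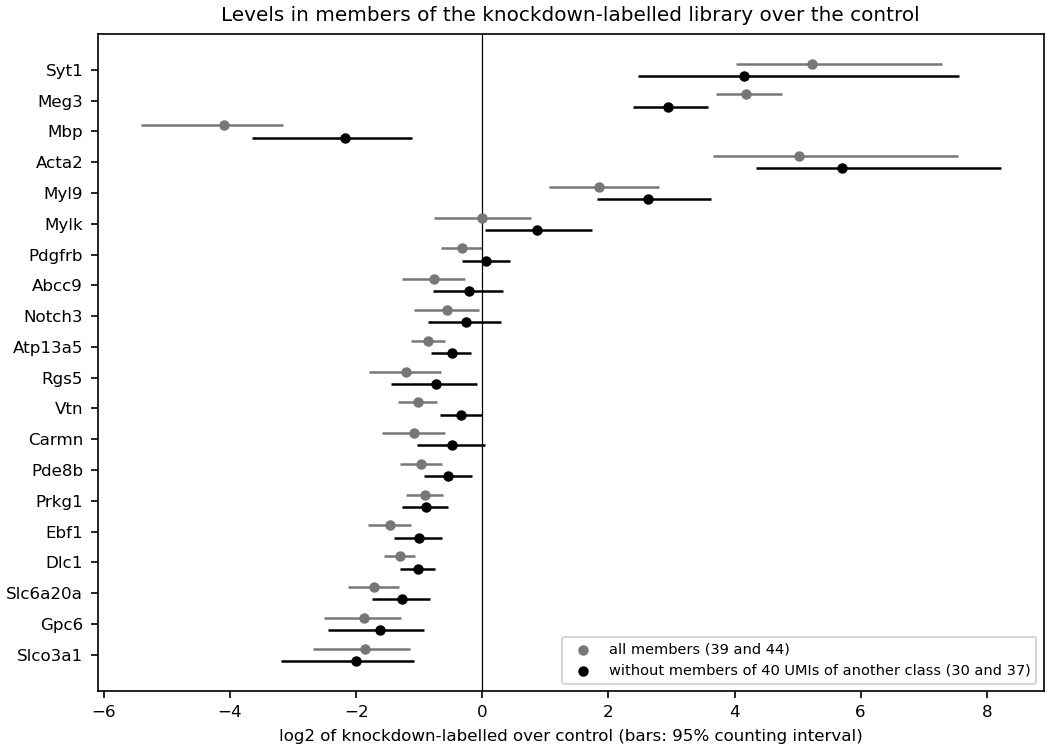
Points give log2 ratios in mural nuclei, knockdown-labelled over control, with bars for the 95% counting interval. Grey points hold all 39 and 44 nuclei. Black points leave out those with 40 UMIs of neuron, oligodendrocyte, astrocyte or microglia markers (30 and 37 left). Pdgfrb, Abcc9 and Notch3 lie near 0 in the black points, Slc6a20a, Gpc6 and Slco3a1 stay below −1, and Acta2 and Myl9 lie on the right through single nuclei.

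The genes at the extremes of the comparison often rested on 1 nucleus. Of the genes higher in the knockdown-labelled library, Acta2 (125 and 3 UMIs), Tagln (55 and 0), Myl9 (61 and 15) and Myl6 (64 and 24) owed 106, 48, 43 and 37 UMIs to the smooth muscle nucleus described above, and without the 4 smooth-muscle-marked nuclei no Acta2 or Tagln UMI was left in either library, while Myl9 and Myl6 turned to −0.71 and −0.31. Sox2ot, a noncoding RNA that overlaps Sox2, had 55 of its 90 UMIs in 1 nucleus. Car4, a membrane carbonic anhydrase, had 50 and 24 UMIs in 21 and 15 nuclei, and without the nuclei of other-class RNA it stood at 734 and 258 CPM (1.49, 0.72 to 2.34). Of the genes lower, the serotonin receptor gene Htr2c had 2 and 83 UMIs, and all 83 lay in the deepest control nucleus, which also held 31 UMIs of the choroid plexus gene Ttr. No other control nucleus had an Htr2c UMI.

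By function, genes of 50 or more UMIs were counted in each list over all mural nuclei and, in brackets, without the 9 and 7 nuclei of other-class RNA. Over all genes the shares were 17.0% higher and 17.0% lower of 737, and in the second set 6.86% higher and 10.8% lower of 277. Of 10 pericyte genes outside the rule, 0 were at least 2-fold higher and 6 lower, with a median log2 ratio of −1.05 (9 measured, 2 lower, median −0.54). Of 7 solute carriers and pumps, 4 were lower, median −1.39 (6 measured, 1 lower, −0.66). Of 6 contractile genes, 2 were higher and 1 lower, median 0.26 (6 measured, 2 higher, 0.90), the 2 being Tagln and Myl9. Vasoactive and cyclic nucleotide genes gave 2 of 11 lower (Pde3a and Pde5a), near the share over all genes, median −0.34 (9 measured, none 2-fold). Basement membrane and integrin genes gave 3 of 5 lower, median −1.02 (5 measured, none 2-fold, −0.45), and transcription factors 3 of 5 lower, median −1.11 (3 measured, 1 lower, −0.47). Of 10 calcium and potassium channel genes, 4 were higher and 2 lower, median 0.27. The 4 higher genes were Ryr3, Kcnma1, Kcnq5 and Ryr2, and each was below the level of the rest of its library in mural nuclei. Without the other-class nuclei none of 4 measured channel genes differed by 2-fold. Of the spliceosome list only Sf3b1 was measured, at 469 and 368 CPM (0.34, −0.25 to 0.96), and no immediate early or interferon gene reached 50 UMIs. Scaled to mural-enriched genes, all mural nuclei gave 39.8% of 737 genes higher and 2.71% lower. Lower genes were then 0 of 10 pericyte genes (1 higher, median −0.11) and 1 of 7 solute carriers and pumps (−0.45). They were 0 of 5 basement membrane and integrin genes (2 higher, −0.08) and 0 of 5 transcription factors (−0.16). Higher were 3 of 6 contractile, 6 of 10 channel and 2 of 11 vasoactive genes. Some of these genes stand in the scaling sum.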

How the data were processed

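Single-nucleus RNA was measured in 2 mouse hippocampus libraries with the 10x Genomics 3' kit (V3), after nuclei were stained with propidium iodide and sorted, per the labels' protocols. The authors deposited raw UMI counts for 55357 genes per barcode. Per the file headers, Cell Ranger 9.0.1 wrote them. Per the submitters' processing notes, bcl2fastq 5.0.1, Seurat 4.1.0 and the GRCm39 build were also used. No source here says whether introns or strand entered the counting. The libraries held 16693 barcodes with 90594923 UMIs (knockdown-labelled) and 12621 with 41781481 (control).

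From these counts, nuclei were filtered and chosen as described above, and UMIs were summed per library over the 39 and 44 mural nuclei (125764 and 114067 UMIs). Endothelial nuclei needed 3 of 8 endothelial markers with at least 3 UMIs of Flt1. Fibroblast nuclei needed 3 of 8 fibroblast markers with at least 3 UMIs of Dcn, Col1a2 and Slc6a13 summed, and oligodendrocyte nuclei 3 oligodendrocyte markers with at most 2 UMIs of Rbfox3, Snap25 and Syt1. CPM carry exact Poisson intervals, ratios exact conditional binomial intervals and shares exact Clopper-Pearson intervals, all at 95%; the limit for a count of 0 is 3 counts. They cover counting error only. Log2 ratios add 0.5 UMI to each sum. Genes needed 50 UMIs over the sets compared, and a call is at least 2-fold, in both libraries for comparisons between classes. With 1 library per group there is no test and no p-value.

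Named genes are the 8 rule genes, the most abundant and most extreme of each list, the 15 most enriched outside the rule, and the 10 most extreme on each side of each comparison. For the comparison between libraries, genes had to exceed the rest of the higher library 2-fold. The members and lists were chosen with earlier results of these data known. Genes that name a count of 5 or fewer, and the markers Bcas2, Pecam1, Cdh5, Lum, Meg3, Mbp, Ttr and Tpm2, were named outside the rule with their values seen. Of the 21 lists, the microglia and macrophage markers stood at 135 and 219 CPM in mural nuclei, the oligodendrocyte precursor markers at 938 and 1087, the astrocyte markers at 954 and 1946, and the ependymal and choroid markers at 159 and 508.

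Scrublet marked 1070 knockdown-labelled nuclei (7.97%) by its automatic threshold. It marked 0.0160% of the control that way, a failure, so the top scores at the expected 10.1% were marked there, 1332 nuclei with ties. Doublets were kept in the main values. Sums, intervals and calls were tested on simulated counts. Work was done with scanpy 1.11.5, scipy 1.17.1, matplotlib 3.10.9, pandas 2.3.3 and numpy 2.4.6 under Python 3.11.15, with edgeR 4.0.16 in R 4.3.3 for a TMM scaling alternative only.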

Additional observations from a re-analysis of the deposited data

How the results depend on the processing

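Of 776 values recomputed under 17 alternative settings, 618 stayed within the range that counting error or a 1.5-fold margin allows, 147 moved and 11 changed direction. Counts below follow the order knockdown-labelled higher and lower, mural over endothelial higher and lower, mural over fibroblast higher and lower, pericyte-marked higher and smooth-muscle-marked higher, with main counts of 125, 125, 134, 318, 153, 329, 259 and 53. A minimum of 20 UMIs gave 442, 408, 313, 507, 371, 530, 914 and 393, and a minimum of 100 gave 47, 48, 68, 170, 78, 207, 81 and 12. No minimum gave 4548, 3700, 1880, 898, 2293, 726, 998 and 9195. The number of genes tested changed with each minimum. With no minimum the last pair also changed order, from 259 and 53 to 998 and 9195. Col3a1, with 1 UMI in pericyte-marked and 0 in smooth-muscle-marked nuclei, had a log2 ratio of −2.70, pericyte-marked over smooth-muscle-marked. The fraction of a UMI added to each sum gives such a ratio, because the totals were 197328 and 10124 UMIs. The last pair with no minimum is therefore not a measure of difference. Asking for 2 of 8 markers gave mural shares of 0.856 and 0.926%, or 274 and 100 per 100 endothelial nuclei. Thinning before the rule gave a control share of 0.232%. A stricter filter on nuclei (1000 genes and 1500 UMIs) left 35 genes higher in smooth-muscle-marked nuclei, and leaving out nuclei of mixed markers left 33, with 73 genes higher in the knockdown-labelled library.

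Of the alternatives chosen after seeing the data, scaling to mural-enriched genes gave 293 higher and 20 lower. Leaving out nuclei with 40 UMIs of neuron, oligodendrocyte, astrocyte or microglia markers gave 19 and 30, with 93 pericyte-marked and 21 smooth-muscle-marked genes. Both changes gave 37 and 11. Under both, Kcnj8 and Vtn turned to log2 ratios of 0.18 and 0.14. Without smooth-muscle-marked nuclei, Acta2 and Tagln (0 UMIs left) stood at −0.099 and −0.099, Myl9 at −0.71 and Myl6 at −0.31. Asking for 4 of 8 markers gave −0.24, −0.24, −1.09 and −0.81 for the same genes, and left no smooth-muscle-marked nuclei to compare. Without the deepest nucleus of each library, Htr2c turned to 2.25, against 0 control UMIs. The cause of the moves that do not follow from the nuclei or genes left out was not tested. No paired analysis was possible because each group holds 1 library, and no replicate could be left out. With 39 and 44 nuclei, genes under 50 UMIs were not resolved.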

Other observations

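Both libraries held nuclei with female and male RNA. Among mural nuclei, 10 knockdown-labelled and 19 control nuclei had UMIs of Xist and none of the Y-linked genes Ddx3y, Uty, Kdm5d and Eif2s3y, and 9 and 11 had Y-linked UMIs and no Xist. A further 7 and 5 had both, and 13 and 9 had neither. Of the barcodes that failed the filter on nuclei, 3264 and 93, none had 3 of the 8 rule genes.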
